A study of Mus musculus with 9 samples.

Results

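Endoderm and gut identity transcription factors are described here in sorted cells of the mouse small intestine. The 8 genes, chosen by symbol, were Foxa1, Foxa2, Foxa3, Hnf4a, Hnf4g, Cdx1, Cdx2 and Gata4, out of 35013 gene symbols in each of 2 deposited tables of normalized counts. All 8 were in both tables and passed the filter on low values. RNA-Seq was performed on 9 libraries, 3 replicates each of CD24negTomato+, CD24+Tomato+ and Tomatoneg cells. Every population came from the intestine of NFKO mice aged 4 to 6 weeks, of genotype Neurog3Cre-FoxO1 f/f; Rosa26tdtomato, in which Cre, made by cells that express Neurog3, deletes FoxO1 and switches on a red reporter. Tomato+ cells therefore descend from Neurog3+ cells, and sorting on the surface protein CD24 divided them. Tomatoneg cells, from mice of that genotype too, are epithelial cells without the reporter and did not undergo Cre recombination at the reporter. No library of FoxO1-intact Neurog3 descendants was analysed, so lineage and FoxO1 deletion cannot be told apart in any comparison below.

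These factors hold the identity of gut epithelium. Foxa proteins are forkhead pioneer factors that open chromatin in endoderm and, in the adult gut, are known for roles in enteroendocrine cells (EEC) and goblet cells. Hnf4a and Hnf4g are nuclear receptors that act together on enterocyte genes of lipid handling and the brush border. Cdx1 and Cdx2 are homeodomain factors that specify intestine as opposed to stomach, and Gata4 is a zinc finger factor that maintains jejunal as opposed to ileal identity.

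In GENCODE release M21 on build GRCm38, Foxa1 lies on the minus strand of chr12:57540628-57546916, Foxa2 on the minus strand of chr2:148042877-148046969, and Foxa3 on the minus strand of chr7:19013284-19023538. Hnf4a is on the plus strand of chr2:163506808-163572910 and Hnf4g on the plus strand of chr3:3508030-3658052. Cdx2 is on the minus strand of chr5:147300805-147307270 and Gata4 on the minus strand of chr14:63198922-63271692. No annotated gene shares exon bases with any of the 8.

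The promoters of the Foxa genes are shown because these were the members that were higher in both Tomato+ populations. Each is a RefSeq window of 300 bases on GRCm38.p6, read 5′ to 3′ on the gene's strand. Capitals mark matches, on either strand, to a forkhead word (TGTTTNC), an Hnf4 word (CAAAGTCCA), a Cdx word (TTTATNG) or a Gata word (AGATAA).
Foxa1, chr12:57546062-57546361: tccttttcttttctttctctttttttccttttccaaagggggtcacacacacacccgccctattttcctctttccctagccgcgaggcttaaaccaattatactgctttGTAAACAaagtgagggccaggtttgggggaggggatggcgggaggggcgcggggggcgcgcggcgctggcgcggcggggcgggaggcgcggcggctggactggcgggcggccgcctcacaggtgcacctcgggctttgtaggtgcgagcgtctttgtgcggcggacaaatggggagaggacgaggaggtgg
Foxa2, chr2:148046920-148047219: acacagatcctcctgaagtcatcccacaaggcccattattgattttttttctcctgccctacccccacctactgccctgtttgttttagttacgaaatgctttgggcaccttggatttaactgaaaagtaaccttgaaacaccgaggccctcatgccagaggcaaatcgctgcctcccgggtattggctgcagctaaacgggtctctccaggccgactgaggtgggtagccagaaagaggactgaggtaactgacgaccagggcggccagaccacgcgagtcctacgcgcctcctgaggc
Foxa3, chr7:19023490-19023789: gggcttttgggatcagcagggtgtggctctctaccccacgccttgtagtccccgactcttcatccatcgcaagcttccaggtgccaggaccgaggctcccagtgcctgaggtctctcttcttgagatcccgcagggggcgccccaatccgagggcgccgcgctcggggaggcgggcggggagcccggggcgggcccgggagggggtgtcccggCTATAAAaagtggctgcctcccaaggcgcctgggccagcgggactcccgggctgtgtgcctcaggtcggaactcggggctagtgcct
The Foxa1 window held a forkhead word at bases 110 to 116. The match at bases 214 to 220 of the Foxa3 window is the Cdx word on the other strand, and its letters overlap those of a TATA box (TATAAA). The Foxa2 window shown, the outermost of 3 for this gene, held none of the 4 words, which says only that these letters are not in it. Of the other Foxa2 windows, that at chr2:148045415-148045714 held a Gata word at bases 68 to 73. Windows were found for 5 of the 8 members, 8 windows in all, and a forkhead word was in 3 of them, in Foxa1, Cdx2 and Hnf4a. Among 32851 promoters of the same length, 20.5% held the forkhead word, 0.475% the Hnf4 word, 10.9% the Cdx word and 11.2% the Gata word, so these matches are a description and not binding sites.

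Depth, estimated from the normalized count that 1 read is worth, was 19158348 to 39234462 reads per library. A count of 3 reads corresponded to 2.10 to 4.29 normalized counts, far below every member's value. Tomatoneg replicate 1 stood apart, with 13025 symbols above 0 against 16008 and 15644 in the other Tomatoneg libraries. For members, results that rest on it are given without it too. Those of other genes, among them Onecut3, Nkx2-2 and Afp, which were at 0 in it, are not. Foxo1, the gene that Cre targets, was at 467, 274 and 371 normalized counts in CD24negTomato+ against 695, 518 and 424 in Tomatoneg (limma adjusted p = 0.427). In the other table it was at 319, 193 and 201 in CD24+Tomato+ against 748, 529 and 444 (limma adjusted p = 0.0579, and 0.0219 when libraries of the same replicate number were blocked). The Foxo1 values are per gene and do not separate the floxed part of the transcript. Cd24a, whose product was sorted on, was at 993 to 2054 normalized counts in CD24negTomato+ and 25857 to 30949 in CD24+Tomato+, against 2944 to 5914 in Tomatoneg. All 8 genes of a list expressed by every gut epithelial cell were detected. Their summed level was 331934 to 397190 in CD24negTomato+ against 304448 to 425143 in Tomatoneg. In CD24+Tomato+ it was 260513 to 305621, below the 311956 to 446622 of Tomatoneg in that table. The median log2 fold change of the list there was -0.34, with 1 gene higher and, with that block, 1 higher and 2 lower.

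The first comparison asks how the factors' mRNA differed between CD24negTomato+ and Tomatoneg cells. Levels are normalized counts, and changes are log2 fold changes with their standard error from limma, fitted over 13420 genes on log2(normalized count + 1), with a Benjamini-Hochberg adjusted p under 0.05 as the threshold. Of the 8 members, 0 passed without the replicate block, against 0.999% of all genes tested called higher and 0.32% called lower. At an unadjusted p under 0.05, 1377 genes were higher and 915 lower. With the replicate number as a block, 3 of 8 passed, all higher, against a background of 4.34% of genes called higher and 2.96% lower. The 3 were Foxa1, Foxa2 and Foxa3, and the median change over the 8 members was 0.46, compared with 0.08 over all genes. Groups did not overlap for 3 members that were higher and 1 that was lower, against 14.7% and 10.6% of all genes.

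The second comparison sets CD24+Tomato+ against the same Tomatoneg libraries, scaled again in the other table, so the comparisons share their controls. Of the 8 members, 3 passed, all higher, against 8.02% of 13874 genes called higher and 4.89% called lower. They were again Foxa1, Foxa2 and Foxa3. With the replicate block, 3 members were higher and 2 lower, against 10.8% and 9.95% of genes, and the added members were Hnf4g and Gata4. The median change over the members was 0.05, compared with 0.16 over all genes, with 4 of 8 members above 0. Groups did not overlap for 3 members that were higher and 3 that were lower, against 21.6% and 14.4% of genes. In such bulk samples, fewer cells of a type and less RNA per cell cannot be told apart.

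**Figure D1:**
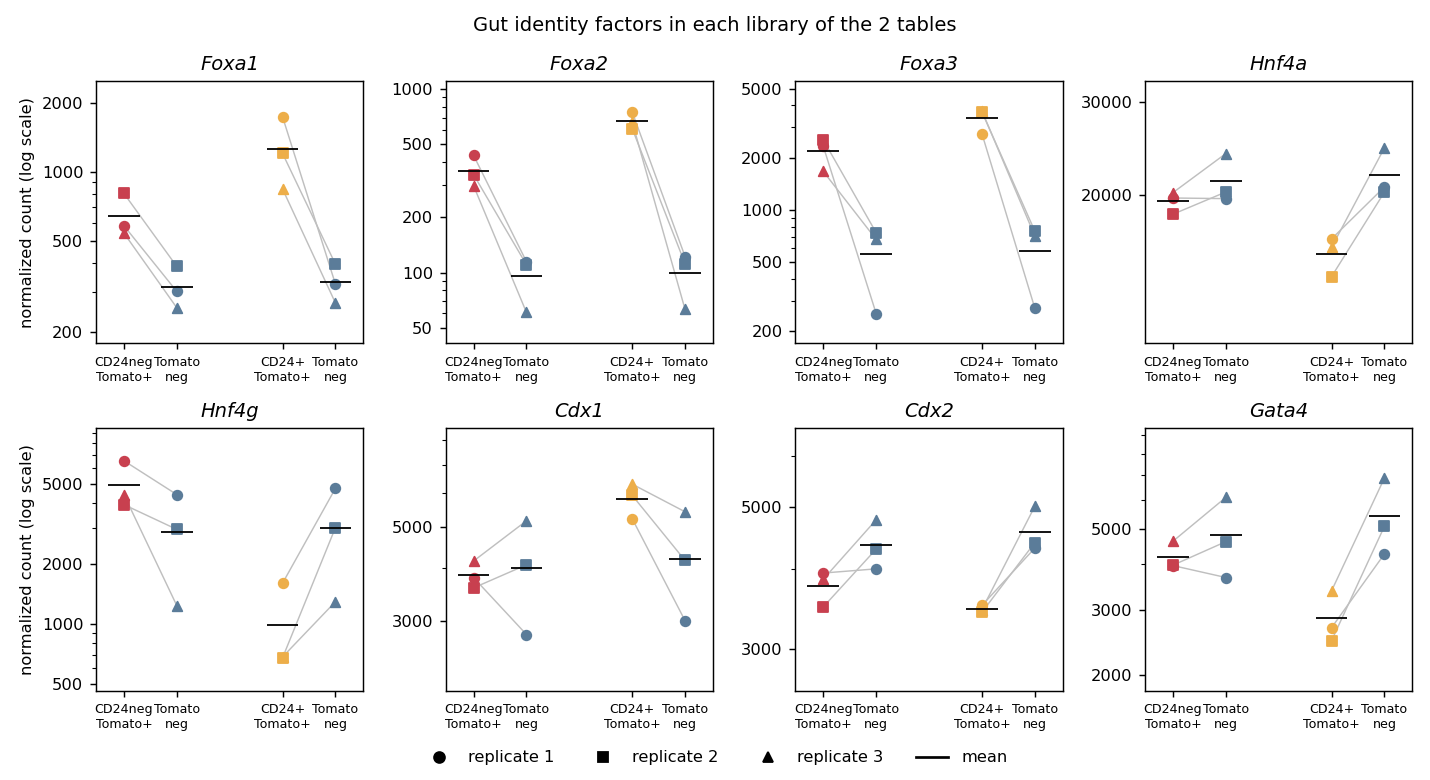
Normalized counts of the 8 factors on log axes, each panel with its own range, in the table of CD24negTomato+ and Tomatoneg (left) and of CD24+Tomato+ and Tomatoneg (right). Points are libraries, grey lines join libraries with the same replicate number and bars are means; the 3 Foxa genes lie above Tomatoneg in every Tomato+ library.

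Foxa1, a pioneer factor expressed in EEC and goblet cells, was at 583, 806 and 541 normalized counts in CD24negTomato+ and at 301, 387 and 256 in Tomatoneg cells. Every CD24negTomato+ library was above every Tomatoneg library, and the log2 fold change was 1.03 ± 0.31 (SE, n = 3 per group, limma adjusted p = 0.149, or 0.0494 with the block). In CD24+Tomato+ cells it was at 1741, 1205 and 843, against 325, 397 and 269 in the same table. The groups were again apart, and Foxa1 rose by 1.89 ± 0.33 on the log2 scale, a 3.70-fold difference (limma adjusted p = 0.0146).

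Foxa2, which acts with Foxa1 on hormone genes of EEC, was the least abundant member. It was at 435, 342 and 297 normalized counts in CD24negTomato+ compared with 115, 110 and 60.6 in Tomatoneg, a change of 1.94 ± 0.41 (limma adjusted p = 0.0702, or 0.0318 with the block). In CD24+Tomato+ it was at 750, 609 and 660 compared with 122, 112 and 63.0. This rise of 2.80 ± 0.38 (limma adjusted p = 0.00726), 6.98-fold, was the largest among the 8 members in either comparison.

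Foxa3, the third member of the family and expressed in liver, pancreas and gut, was at 2324, 2531 and 1667 normalized counts in CD24negTomato+ and at 253, 739 and 676 in Tomatoneg. The lowest Tomatoneg value came from replicate 1, the library that stood apart. The change was 2.09 ± 0.43 (limma adjusted p = 0.0674, or 0.0327 with the block) and 1.60 without that library (limma adjusted p = 0.0214). In CD24+Tomato+ it was at 2757, 3680 and 3721 against 272, 756 and 709, a rise of 2.67 ± 0.41 (limma adjusted p = 0.00974).

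Several of the Foxa calls did not hold when a single library was left out. In CD24+Tomato+, leaving out replicate 2 of that group ended all 3 calls, with limma adjusted p of 0.0947 for Foxa1, 0.0602 for Foxa2 and 0.0654 for Foxa3. Leaving out its replicate 3 ended those of Foxa2 (0.0504) and Foxa3 (0.0576), and leaving out its replicate 1 that of Foxa1 (limma adjusted p = 0.0562). In CD24negTomato+, Foxa2 passed without Tomatoneg replicate 1 (limma adjusted p = 0.0293). Over all fits that left out a library, the log2 fold changes of the 3 genes in CD24+Tomato+ stayed at 1.62 or more.

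Markers of the secretory cells that express Foxa genes moved with them, and their part in the result was not tested. Goblet markers, 9 genes, summed to 2109910 to 2812440 normalized counts in CD24negTomato+ against 133385 to 205587 in Tomatoneg, and 8 of 9 rose (9 of 9 with the block). In CD24+Tomato+ they summed to 1003640 to 1266280 against 148324 to 218735, and 9 of 9 rose. EEC markers, 12 genes, summed to 80601 to 147380 in CD24negTomato+ (6 of 12 rose, 9 with the block) and 151699 to 226311 in CD24+Tomato+ (12 of 12 rose), against 2932 to 7022 in Tomatoneg. Paneth markers, 9 genes, went apart between the populations. They summed to 19375 to 48931 in CD24negTomato+ against 38358 to 153993, with 0 of 9 called (5 lower with the block), and to 493752 to 2130550 in CD24+Tomato+ against 41508 to 162369, with 9 of 9 higher. No marker of these 3 lists was at 0 in every library.

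**Figure D2:**
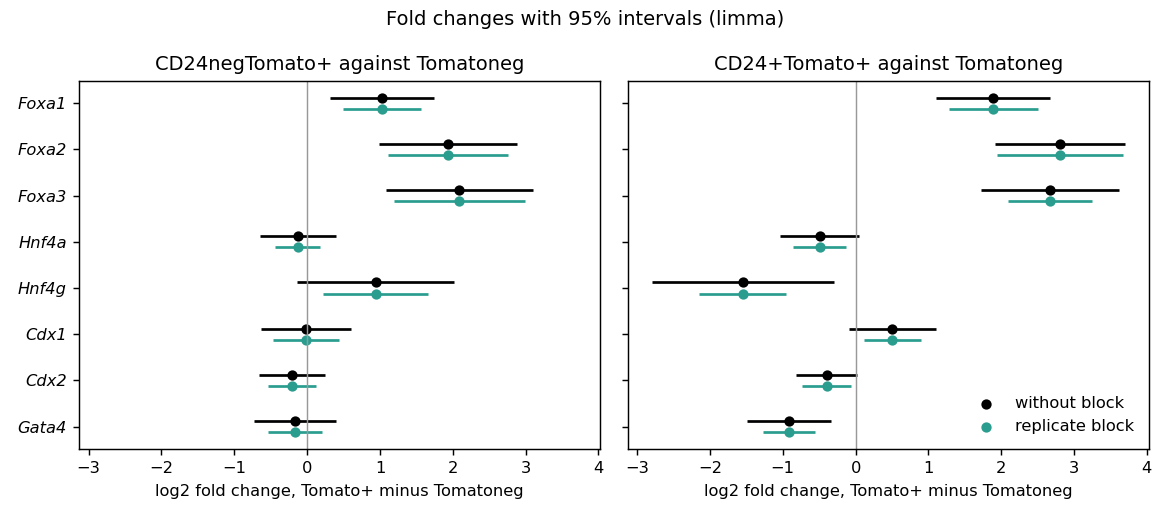
Log2 fold change of each factor, Tomato+ minus Tomatoneg, with its 95% interval from limma without (black) and with (green) the replicate number as a block. The Foxa intervals lie above 0 in both panels, and those of Hnf4g lie on opposite sides of 0 with the block.

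Hnf4a, the main hepatocyte nuclear factor of enterocytes, was the most abundant member. It was at 19768, 18424 and 20237 normalized counts in CD24negTomato+ and at 19714, 20292 and 23976 in Tomatoneg, and the groups overlapped. The log2 fold change was -0.13, with a 95% interval from -0.65 to 0.39 (limma adjusted p = 0.802). In CD24+Tomato+ it was at 16550, 14054 and 15959 against 20742, 20281 and 24572. All 3 were below every Tomatoneg library, but the change of -0.49 ± 0.23 did not pass (limma adjusted p = 0.218, or 0.0653 with the block).

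Hnf4g, the gut-enriched paralog of Hnf4a, had changes of opposite sign in the 2 populations, of which that in CD24negTomato+ did not pass with or without the block. It was at 6542, 3947 and 4432 normalized counts in CD24negTomato+ compared with 4433, 2968 and 1234 in Tomatoneg. Each replicate was above the Tomatoneg library of its own number, but the groups overlapped and the change of 0.94 ± 0.46 did not pass (limma adjusted p = 0.347, or 0.105 with the block). In CD24+Tomato+ it was at 1596, 676 and 683 compared with 4757, 3025 and 1290. The groups overlapped here too, since Tomatoneg replicate 3 lay below CD24+Tomato+ replicate 1, while every library was below its own number. The change was -1.55 ± 0.54 (limma adjusted p = 0.105), and with the block Hnf4g fell (limma adjusted p = 0.00742). Without Tomatoneg replicate 3 the change was -2.07 (limma adjusted p = 0.0369), but with any other single library left out it did not pass. Without Tomatoneg replicate 1, the library that stood apart, it was -1.13 (limma adjusted p = 0.180). The change in CD24negTomato+ without that library was 1.34 (limma adjusted p = 0.0878).

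The level of Hnf4a relative to Hnf4g within a library does not depend on library scaling. Ratios here and below are of normalized counts, without correction for transcript length (4362 bases for Hnf4a, 2327 for Hnf4g). They are read only for differences between groups. Hnf4a was 3.02, 4.67 and 4.57 times Hnf4g in CD24negTomato+ replicates 1, 2 and 3. It was 10.6, 21.2 and 23.8 times Hnf4g in CD24+Tomato+ cells. These populations did not overlap, and their mean log2 ratios differed by 4.36-fold (exact two-sided permutation p = 0.1, the smallest that 3 against 3 can give). Tomatoneg cells spanned both, at 4.45, 6.84 and 19.4, and were separated from neither (exact permutation p = 0.3 and 0.2). Of the 12 ratio comparisons made, 5 reached this smallest p (Benjamini-Hochberg adjusted, 0.24), and none could pass 0.05.

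Enterocyte markers, 10 genes, fell together with Hnf4g in CD24+Tomato+, and their part in its change was not tested. They summed to 332131 to 781772 normalized counts in CD24negTomato+ against 266009 to 951174 in Tomatoneg, with 0 of 10 called (1 higher with the block) and a median change of 0.08, as over all genes. In CD24+Tomato+ they summed to 48299 to 153202 against 271657 to 1023310, and 7 of 10 fell (10 of 10 with the block). No enterocyte marker was at 0 in every library.

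Cdx1, a homeodomain factor of the crypts, was at 3798, 3595 and 4157 normalized counts in CD24negTomato+ and at 2793, 4072 and 5167 in Tomatoneg. The CD24negTomato+ values lay within the Tomatoneg range, and the change was -0.02, with a 95% interval from -0.63 to 0.60 (limma adjusted p = 0.982). In CD24+Tomato+ it was at 5226, 5928 and 6300 against 3010, 4169 and 5424. Each replicate was above its own number, and the change was 0.51 ± 0.26 (limma adjusted p = 0.249, or 0.0687 with the block).

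Cdx2, the factor that specifies intestine, varied least among CD24+Tomato+ libraries, at 3504, 3420 and 3453 normalized counts, against 4306, 4391 and 5003 in Tomatoneg. In CD24negTomato+ it was at 3938, 3486 and 3851 against 3997, 4291 and 4768. Both Tomato+ populations lay below every Tomatoneg library of their table, but by little. The changes were -0.40 ± 0.18 (limma adjusted p = 0.197) and -0.21 ± 0.20 (limma adjusted p = 0.613), and neither passed with the block (limma adjusted p = 0.0895 and 0.353).

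Relative to Cdx2, Cdx1 was higher in CD24+Tomato+ than in the other populations. The ratio of Cdx1 to Cdx2 was 1.49, 1.73 and 1.82 in CD24+Tomato+, 0.965, 1.03 and 1.08 in CD24negTomato+, and 0.699, 0.949 and 1.08 in Tomatoneg. CD24+Tomato+ lay above both other groups, by 1.64-fold over CD24negTomato+ and 1.87-fold over Tomatoneg (exact permutation p = 0.1 each, the smallest possible). CD24negTomato+ and Tomatoneg overlapped (exact permutation p = 0.5).

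Gata4, the jejunal factor, was at 3972, 3983 and 4629 normalized counts in CD24negTomato+ and at 3685, 4616 and 6098 in Tomatoneg, a change of -0.17 with a 95% interval from -0.74 to 0.40 (limma adjusted p = 0.760). In CD24+Tomato+ it was at 2689, 2478 and 3389 against 4273, 5084 and 6886. All 3 were below every Tomatoneg library, and the change was -0.91 ± 0.25 (limma adjusted p = 0.0525). Gata4 fell with the replicate block (limma adjusted p = 0.00807), and it also passed without Tomatoneg replicate 1 (limma adjusted p = 0.0258). With any other single library left out, Gata4 did not pass (limma adjusted p = 0.0966 to 0.237).

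**Figure D3:**
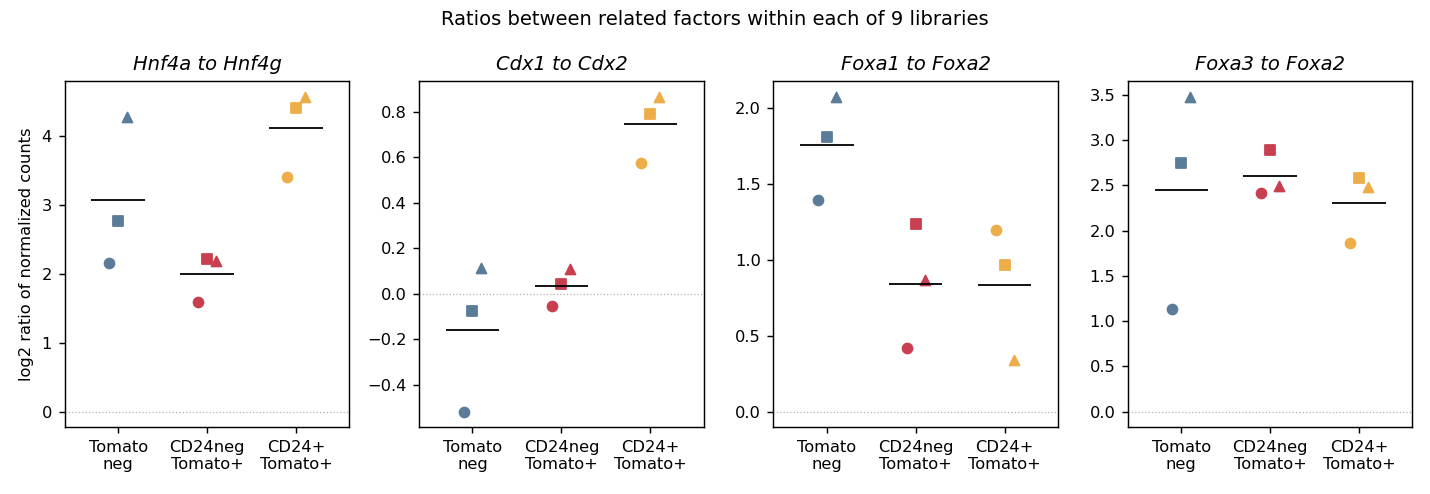
Log2 ratio of normalized counts between related factors in each of the 9 libraries (circle, square and triangle for replicates 1, 2 and 3; bars are group means). Cdx1 to Cdx2 is highest in the 3 CD24+Tomato+ libraries, and Foxa1 to Foxa2 is lower in all 6 Tomato+ libraries than in Tomatoneg.

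Within the Foxa family, the ratio of Foxa1 to Foxa2 was below that of Tomatoneg in every Tomato+ library. In normalized counts, not corrected for length, Foxa1 was 1.34, 2.36 and 1.82 times Foxa2 in CD24negTomato+, and 2.30, 1.96 and 1.26 times in CD24+Tomato+. In Tomatoneg it was 2.63, 3.51 and 4.22 times Foxa2, above all 6 Tomato+ libraries (exact permutation p = 0.1 for each population). The Tomato+ populations overlapped in this ratio (exact permutation p = 1). Foxa3 to Foxa2 overlapped among all groups, from 2.20 to 11.1 in Tomatoneg, 5.34 to 7.41 in CD24negTomato+ and 3.64 to 5.98 in CD24+Tomato+ (exact permutation p = 0.5 to 0.9).

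Levels of different genes were compared per kb of the longest coding transcript. Hnf4a ranked first in every group, at 4465 ± 216 normalized counts per kb in CD24negTomato+ (SD, n = 3), 3558 ± 299 in CD24+Tomato+ and 4889 ± 530 in Tomatoneg. Cdx1 came next everywhere, and in CD24+Tomato+ its range of 2986 to 3600 per kb overlapped that of Hnf4a. The order below them differed between the groups. In Tomatoneg it was Cdx2, Gata4, Hnf4g, Foxa3, Foxa1 and Foxa2, where neighbours from Cdx1 down to Hnf4g overlapped but the Foxa genes were separate. In CD24negTomato+ Hnf4g was next after Cdx1, at 2137 ± 593 per kb, overlapping both Cdx1 and Cdx2. In CD24+Tomato+ Foxa3 was next after Cdx1, at 1662 ± 268 per kb, overlapping Cdx2, and Hnf4g came after Gata4, at 423 ± 227, overlapping Foxa1. Foxa3 made up 74.1% ± 1.3 of the summed Foxa level per kb in CD24negTomato+, 69.8% ± 8.5 in CD24+Tomato+ and 62.9% ± 15.5 in Tomatoneg cells (SD, n = 3), shares that differed by less than the spread in Tomatoneg.

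**Figure D4:**
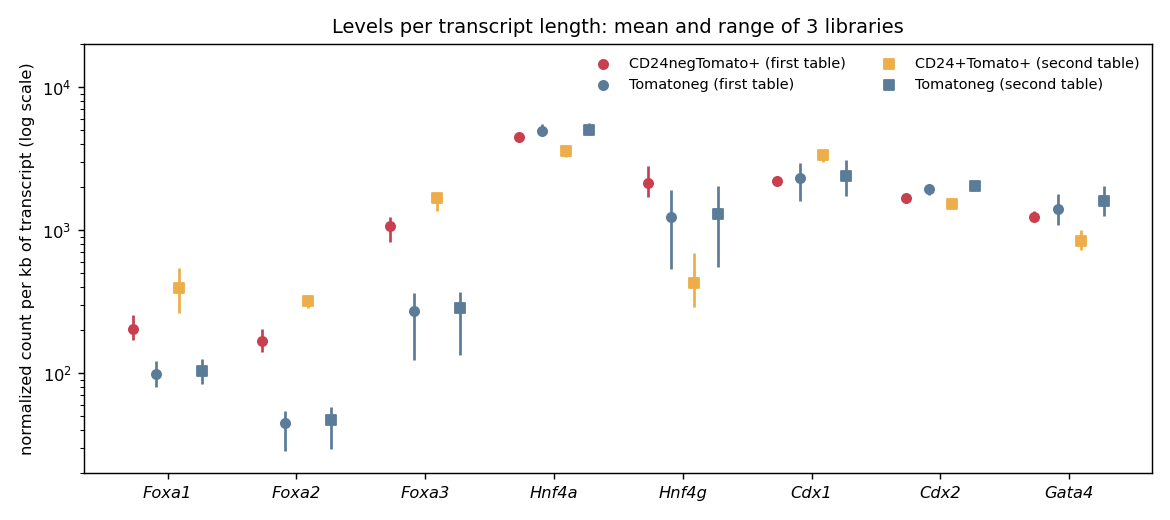
Normalized counts per kb of the longest coding transcript on a log axis, as mean (point) and range (line) of 3 libraries per group, for both tables. Foxa3 overlaps Gata4 in CD24negTomato+ and Cdx2 in CD24+Tomato+, and lies below both in Tomatoneg, while Hnf4g is lowest in CD24+Tomato+.

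Other identity factors, 24 genes that act with the 8, were read beside them. In CD24negTomato+, of 20 tested, 1 rose and 0 fell, and 4 were higher with the block, against 0.999% and 4.34% of all genes called higher, with a median change of 0.01 against 0.08 over all genes. The gene that rose was Onecut3, a cut-homeodomain factor, at 594, 583 and 315 normalized counts against 0, 14.1 and 8.60 (limma adjusted p = 0.0349), and with the block Klf4, Onecut2 and Prox1 were higher too, named after their values were seen. In CD24+Tomato+, of 21 tested, 4 rose and 2 fell, against 8.02% of all genes called higher and 4.89% lower. The median change was -0.23, against 0.16 over all genes. With the block 5 were higher, adding Klf4, and 3 lower, adding Isx, against 10.8% and 9.95% of all genes. Sox17 and Sox2, factors of early endoderm and foregut, were at 0 in every library.

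Those that rose in CD24+Tomato+ were Onecut3, Hhex, Prox1 and Sox9. Hhex, a foregut and pancreatic homeobox gene, was at 165, 143 and 92.7 normalized counts against 0, 4.66 and 0 in Tomatoneg (limma adjusted p = 0.0101). These Tomatoneg values are at 0 or near the count of 3 reads, so Hhex passed the filter only through CD24+Tomato+. It was not tested in the other table, where it was at 4.94, 0.78 and 0 in CD24negTomato+. Prox1, a homeobox gene of EEC and tuft cells, was at 895, 606 and 328 against 48.5, 67.7 and 103 (limma adjusted p = 0.0131). Sox9, a factor of crypt and Paneth cells, was at 1200, 1469 and 1289 against 400, 460 and 315, a rise of 1.76 (limma adjusted p = 0.00806). In CD24negTomato+ Sox9 was at 76.5, 208 and 243 against 371, 450 and 300 (limma adjusted p = 0.266). Onecut3 was at 436, 229 and 99.2 in CD24+Tomato+ against 0, 14.5 and 9.01 (limma adjusted p = 0.0273), and it passed the filter only through CD24+Tomato+ here.

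The 2 that fell were Creb3l3 and Esrra, both known in enterocyte metabolism. Creb3l3, a regulator of lipid genes, was at 1167, 438 and 697 normalized counts in CD24+Tomato+ against 6805, 3266 and 6400, a change of -2.88 (limma adjusted p = 0.00923). Esrra, an orphan nuclear receptor of mitochondrial genes, was at 3226, 2691 and 2920 against 7548, 5332 and 6275, a change of -1.11 (limma adjusted p = 0.0178). Without CD24+Tomato+ replicate 1, 2 or 3, the number of these factors past the threshold was 2, 0 and 1.

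Genes known as targets of Hnf4 and Cdx, 17 in all, were read beside these factors, whose part in their changes was not tested. Apoa1, Apoa4, Fabp2 and Sis are also enterocyte markers, Fabp1 and Lct proximal genes below, and Vil1 is in the list expressed by every gut epithelial cell. In CD24negTomato+ Hnf4g changed by 0.94, and Hnf4a (-0.13), Cdx1 (-0.02) and Cdx2 (-0.21) were below 0. In CD24+Tomato+ Cdx1 changed by 0.51, and Hnf4a (-0.49), Hnf4g (-1.55) and Cdx2 (-0.40) were below 0. In CD24negTomato+ 0 of 17 passed and 14 of 17 changes were above 0, with a median of 0.37 against 0.08 over all genes. With the block, 4 were higher (Apob, Fabp2, Krt20 and Muc13) and 1 lower (Cldn2), names given after their values were seen. In CD24+Tomato+ 4 of 17 fell and 17 of 17 changes were below 0, with a median of -1.75 against 0.16. With the block 14 of 17 fell, and of all genes 4.89% were called lower without it and 9.95% with it. The call count was 0 without CD24+Tomato+ replicate 2 and 0 without its replicate 3, and it was 2 without Tomatoneg replicate 2.

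The 4 target genes that fell in CD24+Tomato+ handle lipid in enterocytes. Apoa1, an apolipoprotein of chylomicrons, was at 29849, 9380 and 6587 normalized counts against 214423, 54442 and 63492, a change of -2.88 ± 0.72 (limma adjusted p = 0.0399). Mttp, which loads lipid onto apolipoprotein B, changed by -2.57 ± 0.47 (limma adjusted p = 0.0163). The fatty acid binding proteins Fabp1 and Fabp2 changed by -2.58 ± 0.56 (limma adjusted p = 0.0258) and -1.78 ± 0.41 (limma adjusted p = 0.0304). In CD24negTomato+ the same genes changed by -0.03 (Apoa1), 0.15 (Mttp), 0.37 (Fabp1) and 1.01 (Fabp2), and of these only Fabp2 passed with the block (limma adjusted p = 0.0183).

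Among genes linked to Foxa factors in secretory cells, 12 in all, 6 rose in CD24negTomato+ (8 higher and 1 lower with the block). The median change was 2.82 against 0.08 over all genes. In CD24+Tomato+ 12 rose (median 5.06 against 0.16). Of all genes, 0.999% and 8.02% were called higher. The list repeats the goblet markers Muc2, Agr2 and Spdef and the EEC markers Gcg, Cck, Pax6, Isl1 and Neurod1, and Pyy is a distal gene below. Its counts are thus not separate from those of the markers, and the part of Foxa factors was not tested. The largest rises in CD24negTomato+ were those of the hormone genes Cck (6.07 ± 0.40), Pyy (4.69 ± 0.42) and Gcg (4.07 ± 0.51), and of Agr2 (2.79 ± 0.50), a disulfide isomerase needed for mucin (limma adjusted p = 0.00281, 0.00571, 0.0159 and 0.0494). In CD24+Tomato+ they were those of Nkx2-2 (6.22 ± 1.5), an endocrine homeobox factor, and of the hormone genes Sst (6.05 ± 0.62), Pyy (5.68 ± 0.40) and Cck (5.54 ± 0.38), with limma adjusted p of 0.0356, 0.0031, 0.00107 and 0.00104. The size of the Nkx2-2 rise rests in part on Tomatoneg replicate 1, where it was at 0. In Tomatoneg replicates 2 and 3 it was at 65.3 and 46.5, as scaled with CD24negTomato+. Sst did not rise in CD24negTomato+, where it was at 209, 226 and 53.4 normalized counts against 862, 1495 and 259 (lower with the block, limma adjusted p = 0.0134). The counts were 3 of 12 without CD24negTomato+ replicate 2, 3 without its replicate 3, and 5 of 12 without CD24+Tomato+ replicate 2.

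**Figure D5:**
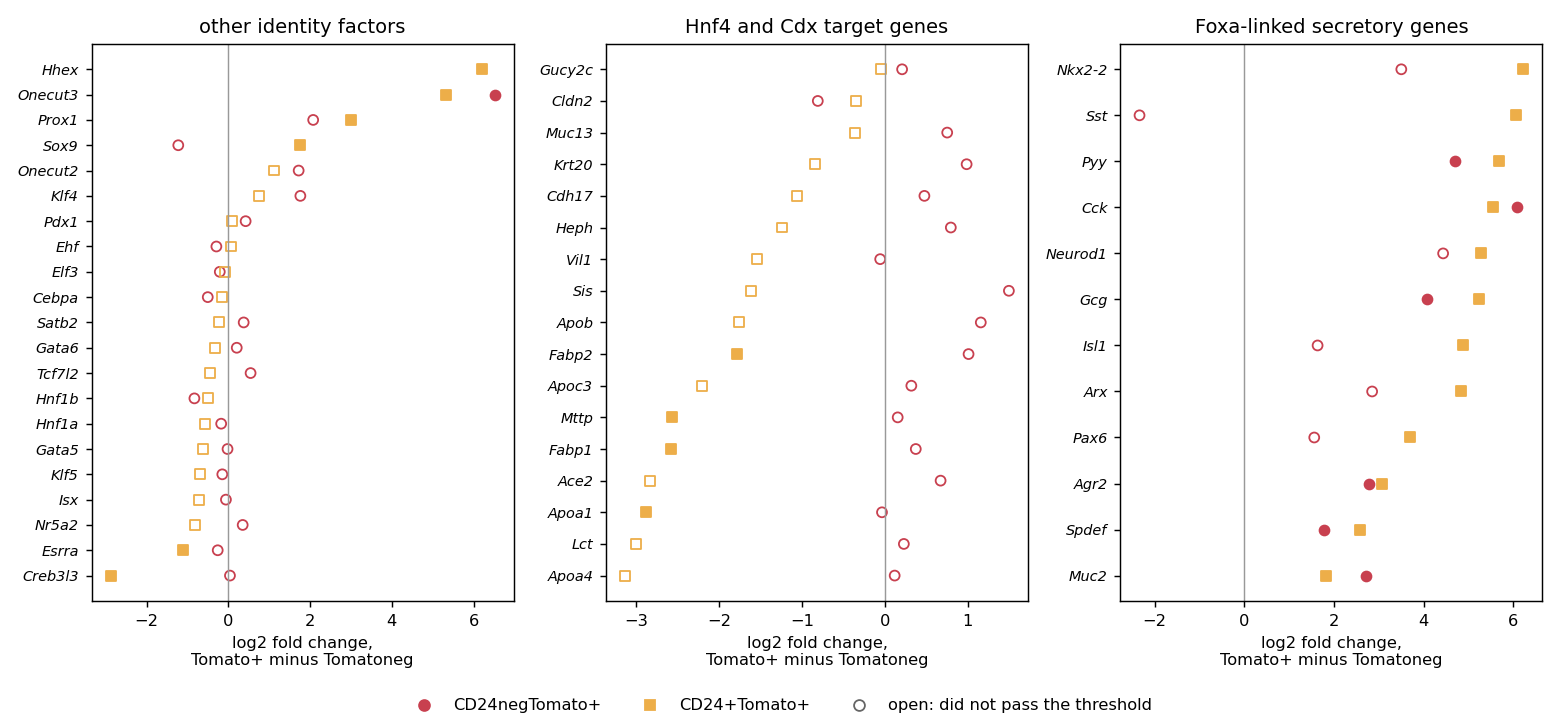
Log2 fold changes of the tested genes of 3 lists in CD24negTomato+ (red circles) and CD24+Tomato+ (yellow squares) against Tomatoneg, filled where the limma adjusted p was under 0.05. Enterocyte targets lie at or below 0 in CD24+Tomato+, and secretory genes lie above 0 except Sst in CD24negTomato+.

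Gata4 is known for setting proximal against distal gene use, so both kinds of genes were read beside it. Of 6 proximal genes, 0 passed in CD24negTomato+, where all 6 changes were above 0, at 0.37 (Fabp1), 0.23 (Lct), 0.71 (Cybrd1), 0.11 (Slc40a1), 0.14 (Slc5a1) and 0.42 (Pdx1). In CD24+Tomato+ 3 of 6 fell (4 with the block), against 4.89% of all genes called lower (9.95% with the block). They were the iron exporter Slc40a1 (-1.92 ± 0.36, limma adjusted p = 0.0177), the glucose transporter Slc5a1 (-2.50 ± 0.53, limma adjusted p = 0.025) and Fabp1. Slc5a1 is also one of the enterocyte markers, of which 7 of 10 fell there. The part of enterocytes or of Gata4 in these falls was not tested. Lct, encoding lactase, was at 8700, 1164 and 1043 normalized counts against 68699, 9074 and 8663 (limma adjusted p = 0.107, or 0.000113 with the block). Cybrd1 changed by 1.63 and Pdx1 by 0.09. None of the 6 passed without CD24+Tomato+ replicate 2, and none without its replicate 3.

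The 6 distal genes did not rise as a group. The ileal bile acid genes Fabp6 (-2.86 ± 0.21), Slc51a (-2.57 ± 0.34) and Slc51b (-3.03 ± 0.36) fell in CD24+Tomato+ (limma adjusted p = 0.00124, 0.00676 and 0.00525), and Slc10a2 changed by -2.17 (limma adjusted p = 0.186, or 0.0206 with the block). The secreted peptide genes Guca2a (2.34 ± 0.24) and Pyy rose (limma adjusted p = 0.00318 and 0.00107). In CD24negTomato+ Guca2a (1.66 ± 0.22, limma adjusted p = 0.0164) and Pyy rose, and the changes of the others were -0.50 (Fabp6), -0.32 (Slc51a), -0.38 (Slc51b) and 1.09 (Slc10a2), with 0 of these 4 called. The position along the intestine from which cells were taken was not given for the libraries.

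The genes whose level most resembled each member's were found among 13238 genes by the lower of the Pearson correlations in the 2 tables, each over 6 libraries that share group structure and the Tomatoneg libraries. For Foxa1 they were Myt1 (r = 0.990) and Arfgef3 (r = 0.989), and for Foxa2 Camk2n2 (r = 0.995) and Syt7 (r = 0.986). Foxa3 was matched by Qsox1 (r = 0.995) and Tubb2b (r = 0.993). Hnf4g was matched by Slc26a3, a chloride-bicarbonate exchanger of the brush border (r = 0.988), and Ugt2b34 (r = 0.986), and Hnf4a less closely by Ppp6r1 (r = 0.953) and Lta4h (r = 0.950). Cdx1 was matched by Mknk2 (r = 0.983) and Slc35b2 (r = 0.982), Cdx2 by Pafah2 (r = 0.979) and Sun1 (r = 0.963), and Gata4 by Nfam1 (r = 0.973) and Ldha (r = 0.972). Such likeness was common for Foxa3, with 545 genes above 0.9, and rare for Hnf4a, with 31.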

How the data were processed

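Small intestinal epithelial cells were sorted with anti-CD24 and anti-Epcam antibodies, after attached pancreata had been removed, and poly-A RNA was sequenced on an Illumina NovaSeq. The deposited values are a signal made by the authors: kallisto 0.44.0 estimates on GRCm38 per gene symbol, normalized by DESeq2 separately in 2 tables of 6 libraries that share the Tomatoneg libraries. The DESeq2 version that the authors used was not given in the sources used here. In the shared libraries, the tables differed by a library factor (median 1.08, 1.02 and 1.05) and by a constant for each gene (SD 0.069 log2, 0.105 for Gata4) that moved by under 0.001 log2 between libraries in 100% of 11074 genes. Ratios set across tables were corrected by it, and whole reads could not be recovered.

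Genes with a mean of at least 10 were tested within each table with limma 3.58.1 (R 4.3.3, trend, log2 of value + 1, two-sided), after the steps were tested on simulated data. Ratios were tested by exact permutation (scipy 1.17.1). The labels call the samples biological replicates but do not say what shared a number. Deviations of same-numbered libraries from their group means correlated at 0.291 to 0.342 and 0.180 to 0.375. Those of different numbers correlated at -0.156 and -0.137 on average. Deviations cancel within a group, so these negative averages follow from the positive values and are no separate evidence for pairing. The numbers were taken as pairs on the positive values alone. Blocked values are given for members and most lists where they change a call. Alternatives changed the pseudocount, filter, scaling, block and libraries. Named genes were all members and region genes, 2 like genes per member, and, from the identity factor, target and Foxa-linked lists, every gene past the threshold in either comparison where a list had at most 8, otherwise the 4 largest rises and falls. Markers were given as sums and counts. Members and lists were chosen with earlier results of these data known, and the lists from textbook knowledge. Intervals do not cover the estimation of counts by kallisto. The authors' single-cell and organoid data were not analysed here.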

Additional observations from a re-analysis of the deposited data

Results flagged for a closer look

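Hnf4g and Sox9 differed from Tomatoneg with opposite signs in the 2 Tomato+ populations, in every pair of libraries with the same replicate number. The log2 fold change against Tomatoneg was 0.94 in CD24negTomato+ and -1.55 in CD24+Tomato+ for Hnf4g, and -1.23 and 1.76 for Sox9. In CD24negTomato+ neither passed (limma adjusted p = 0.347 for Hnf4g and 0.266 for Sox9, or 0.105 and 0.134 with the replicate block). In CD24+Tomato+ Sox9 passed (limma adjusted p = 0.00806), and Hnf4g did with the block (limma adjusted p = 0.00742) but not without it (0.105). The difference between the 2 changes was not tested.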

How the results depend on the processing

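Of the 177 genes past the threshold in CD24negTomato+, the count was 112 with a pseudocount of 0.1, 415 with 10, 494 with quantile normalization and 115 with pan-epithelial scaling, and 18 to 1059 when a library was left out (lowest without CD24negTomato+ replicate 2, highest without Tomatoneg replicate 1). The count of members, 0 of 8, became 2 with a pseudocount of 10 and with quantile normalization, and 0 to 2 when a library was left out. With the replicate block, the counts were 979 genes and 3 members. Combined with the replicate block in fits chosen after seeing the data, they were 992 and 2 with pan-epithelial scaling, 1639 and 3 with quantile normalization, 2838 and 3 without the replicate 1 pair, 323 and 1 without pair 2, and 884 and 1 without pair 3.

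In CD24+Tomato+, the 1791 genes and 3 members became 2885 and 5 with the replicate block, 2880 and 6 with pan-epithelial scaling besides, 3656 and 6 with quantile normalization besides, and 3651 genes and 6 members in the blocked fit without pair 1; it gave 5 members without pair 2 and 5 without pair 3. Leaving out a library gave 168 to 2478 genes and 0 to 4 members, lowest without CD24+Tomato+ replicate 2. Cdx1 passed, higher, only in the blocked fits with pan-epithelial scaling (0.70) or quantile normalization (0.79) among the fits made. Hnf4a passed, lower, in 1 fit, the blocked fit without pair 1 (-0.58).

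Signs turned for changes near 0. Cdx1 in CD24negTomato+ ranged from -0.26 to 0.19 as libraries were left out, was 0.031, 0.017 and 0.19 without CD24negTomato+ replicate 2 and Tomatoneg replicates 2 and 3, and 0.065 and 0.13 in the replicate block fits without pairs 2 and 3. Gata4 there ranged from -0.34 to 0.021, the latter without Tomatoneg replicate 3. The log2 ratio of Foxa1 to Foxa2 between the Tomato+ populations ranged from -0.24 to 0.22, and that of Foxa3 to Foxa2 from -0.51 to 0.66 in CD24negTomato+ and from -0.80 to 0.37 in CD24+Tomato+ against Tomatoneg. The smallest p of the paired exact test of ratios is 0.25. Except where a fit's construction leaves fewer samples, the cause was not tested.

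Scaling moved the median change of all genes, from 0.08 to -0.12 in CD24negTomato+ with equal library totals, and from 0.16 to -0.02 with quantile normalization and 0.36 with pan-epithelial scaling in CD24+Tomato+. Higher genes made up 75.7% of calls in CD24negTomato+, 62.0% with equal totals and 61.5% with quantile normalization. In CD24+Tomato+ they made up 62.1%, and 48.9% with quantile normalization. No member's direction turned with scaling. With pan-epithelial scaling the negative changes in CD24+Tomato+ were smaller, at -0.30 (Hnf4a), -1.36 (Hnf4g), -0.21 (Cdx2) and -0.72 (Gata4), and the positive ones larger.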

Other observations

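Among 9 liver and gastric markers, Afp and Ttr, secreted liver proteins whose genes are known Foxa and Hnf4 targets in liver, were high in both Tomato+ populations. They were chosen after their values were seen, and whether Foxa or Hnf4 factors bear on them here was not tested. Afp was at 2564, 892 and 255 normalized counts in CD24negTomato+ against 0, 30.5 and 8.62 in Tomatoneg (limma adjusted p = 0.0552, or 0.0396 with the replicate block), and at 2787, 1150 and 1005 in CD24+Tomato+ against 0, 31.1 and 8.99 (limma adjusted p = 0.00998). Ttr was at 401, 521 and 446 in CD24negTomato+ against 10.8, 81.0 and 53.0 (limma adjusted p = 0.0614, or 0.0257 with the block), and at 920, 887 and 791 in CD24+Tomato+ against 11.7, 83.0 and 55.7 (limma adjusted p = 0.0102). Of the 9 markers, 2 were tested in the CD24negTomato+ table and 4 in the CD24+Tomato+ table, where these 2 were the ones called. Ahsg was at 0 in every library of the first table, and Gkn1 and Muc5ac in every library of the second.

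The remaining marker lists gave values beside which the members can be read. Lymphocyte markers, 10 genes, summed to 505 to 1276 normalized counts in Tomato+ and 3083 to 11807 in Tomatoneg libraries, with 3 lower in CD24negTomato+ (6 with the block) and 8 lower in CD24+Tomato+. Tuft markers, 8 genes, summed to 380 to 408 in CD24negTomato+ (2 lower, 5 with the block) and 12775 to 15483 in CD24+Tomato+ (7 higher), against 1344 to 2136 in Tomatoneg. Stem cell markers, 8 genes, summed to 4740 to 6357 in CD24negTomato+ (2 lower, 4 with the block) and 20117 to 23942 in CD24+Tomato+ (0 called, 2 higher with the block), against 11672 to 32575. Stromal markers, 8 genes, summed to 738 to 1373 and 2624 to 3157, against 618 to 1401, with 0 and 1 called (1 and 1 with the block). Acinar markers, 10 genes, summed to 1667 to 2380 and 5811 to 17943, against 696 to 1389, with 0 and 1 called (0 and 2 with the block).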
